A study of Mus musculus with 4 samples.

Results

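The pro-survival branch of the BCL-2 family was described in cultured mouse B cells through 6 genes, Bcl2, Bcl2a1a, Bcl2a1b, Bcl2a1d, Bcl2l1 and Bcl2l2. Members were all array probes whose name carries the NCBI Gene ID of one of these genes. This gave 9 of 45992 probes on the array, for 6 of the 8109 genes that could be given a symbol. The cells were of C57BL/6 background, and both groups carried the prdm1-/- genotype, which removes Blimp-1, the transcription factor of plasma cell differentiation. CD40 ligand was given with IL-4 and IL-5, each at 10 U/mL, and the cells were sorted by flow cytometry on day 4 into GFP-positive and GFP-negative cells. As source, the labels give pre-plasmablasts for cells with GFP and B cell blasts for cells without it, while the sample titles call both groups B cell blasts. Each group had 2 arrays of total RNA. The labels name neither the locus that carries GFP nor whether replicates came from separate cultures or mice, so a p-value here covers the variation between arrays alone, and that may be technical. The comparison bears on how survival genes are set in cells held just short of the plasmablast stage relative to activated blasts of the same genotype.

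Pro-survival BCL-2 proteins keep cells alive by binding pro-apoptotic relatives and so preventing BAX and BAK from permeabilising the outer mitochondrial membrane. BCL-2, BCL-XL (Bcl2l1), BCL-W (Bcl2l2) and A1 differ in which BH3-only proteins they bind best. A1 is a short-lived protein whose gene is switched on by NF-kB after B-cell receptor or CD40 signals, and the mouse carries several copies of it, the Bcl2a1 genes. BCL-XL is likewise raised by CD40 in activated B cells, while BCL-2 is prominent in resting and memory lymphocytes.

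In GFP-positive cells 2 of the 3 A1 probes were called lower, where 5.20% of all tested probes were. Bcl2a1b fell by 1.11 log2 units and Bcl2a1d fell by 1.09, and Bcl2a1a had a change of -0.65 that did not pass the test (limma adjusted p = 0.0118, 0.0215 and 0.0748). Bcl2, Bcl2l1 and Bcl2l2 had changes between -0.33 and +0.03, none of them called. All log2 changes are GFP-positive minus GFP-negative, and a probe was called at a limma adjusted p under 0.05 over all 15787 probes detected on at least 2 arrays. In bulk samples, fewer cells with A1 transcripts and less A1 RNA per cell cannot be told apart.

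The A1 genes lie on chromosome 9 and are near-identical copies, so an array probe made for one may bind transcripts of another, and the 3 A1 probes may not be 3 separate readings. The stretches of 250 bases upstream of their annotated starts are shown here to make the likeness of the copies visible. Probe and transcript sequences were not compared, and whether these stretches bear on the A1 changes was not tested. The stretches are from RefSeq (GRCm38.p6), at chr9:89199023-89199272 on the plus strand for Bcl2a1b, chr9:88731851-88732100 on the minus strand for Bcl2a1d and chr9:88956670-88956919 on the plus strand for Bcl2a1a. Capitals mark matches to TGANTCA and to GAGGAAGT, an ETS-type core of the kind bound by PU.1. TGANTCA is a loosened form of the AP-1 core that allows any middle base, and each match here reads TGAATCA.
Bcl2a1b: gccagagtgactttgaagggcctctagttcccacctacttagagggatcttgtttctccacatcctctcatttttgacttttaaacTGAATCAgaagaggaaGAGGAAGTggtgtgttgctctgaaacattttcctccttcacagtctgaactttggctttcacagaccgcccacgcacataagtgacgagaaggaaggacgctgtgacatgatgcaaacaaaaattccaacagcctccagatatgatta
Bcl2a1d: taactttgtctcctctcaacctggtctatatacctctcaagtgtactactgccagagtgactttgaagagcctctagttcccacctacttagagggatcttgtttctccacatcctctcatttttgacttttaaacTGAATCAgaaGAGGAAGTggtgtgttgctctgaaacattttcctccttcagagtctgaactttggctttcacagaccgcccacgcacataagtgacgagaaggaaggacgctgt
Bcl2a1a: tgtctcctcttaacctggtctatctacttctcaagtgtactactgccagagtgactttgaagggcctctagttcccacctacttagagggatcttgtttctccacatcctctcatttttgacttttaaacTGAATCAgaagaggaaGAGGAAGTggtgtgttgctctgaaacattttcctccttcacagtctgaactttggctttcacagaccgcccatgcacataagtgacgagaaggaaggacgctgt

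Aligned without penalty at the ends, the Bcl2a1b and Bcl2a1a stretches were identical at 205 of 206 bases, those of Bcl2a1b and Bcl2a1d at 198 of 200 and those of Bcl2a1a and Bcl2a1d at 238 of 244. The last of these pairs and the one of Bcl2a1b and Bcl2a1d each had a gap of 6 bases, so that the motifs stand closer together in the Bcl2a1d stretch. The Bcl2a1b stretch is shifted against the other two because its annotated start lies further downstream. Each of the 3 stretches held 1 match to TGANTCA and 1 to GAGGAAGT, with no overlap between the motifs. On either strand, 6.75% of 32851 RefSeq stretches of the same length held TGANTCA and 2.44% held GAGGAAGT. The NF-kB consensus, searched on both strands, had no match in the A1 stretches and was present in 7.25% of all stretches. Among the other members, 1 of the 3 stretches listed for Bcl2l1 held it, and the stretches of Bcl2 and Bcl2l2 held none of the 3 motifs. All 6 genes had an entry. A match of letters is not a binding site, and these motifs were chosen after the A1 stretches had been read.

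Bcl2a1b (probe scl0012045.1_114-S) was read at 12.62 and 12.91 log2 units in GFP-positive replicates 1 and 2, against 14.04 and 13.72 in GFP-negative replicates 1 and 2. Both GFP-positive arrays were below both GFP-negative arrays, and the gap between the groups, 0.81, exceeded the 0.30 between the GFP-positive arrays and the 0.31 between the GFP-negative arrays. The change was -1.11 (SE 0.15, 95% interval -1.49 to -0.73). Of all tested probes, 104 (0.659%) had a more negative change.

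Bcl2a1d (probe scl0012047.1_125-S) had 12.15 and 12.66 log2 units in GFP-positive cells, against 13.60 and 13.40 in GFP-negative cells. Its groups were also apart, by 0.74, with 0.51 between the GFP-positive arrays and 0.20 between the GFP-negative arrays. Its change was -1.09 (SE 0.18, 95% interval -1.55 to -0.64), and 109 tested probes (0.690%) had a more negative one. Without GFP-negative replicate 1 this call was lost (change -0.99, limma adjusted p = 0.0600). Over the 11 alternatives Bcl2a1b kept its call in 11 and Bcl2a1d in 10.

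Bcl2a1a (probe scl0012044.1_118-S) had 11.16 and 11.19 log2 units in GFP-positive cells, against 12.08 and 11.57 in GFP-negative cells. The GFP-positive arrays were nearly level, and the GFP-negative arrays lay 0.50 apart, more than the 0.38 between the groups. Its change was -0.65 (SE 0.17, 95% interval -1.08 to -0.22). The size rested on which GFP-negative array was kept. Without GFP-negative replicate 1 it was -0.40 (limma adjusted p = 0.111), and without GFP-negative replicate 2 it was -0.90 (limma adjusted p = 0.0169). A trend of the variance with the mean put it just inside the threshold (limma adjusted p = 0.04996). The study's 2 arrays a group therefore do not settle whether the Bcl2a1a probe changed.

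**Figure D1:**
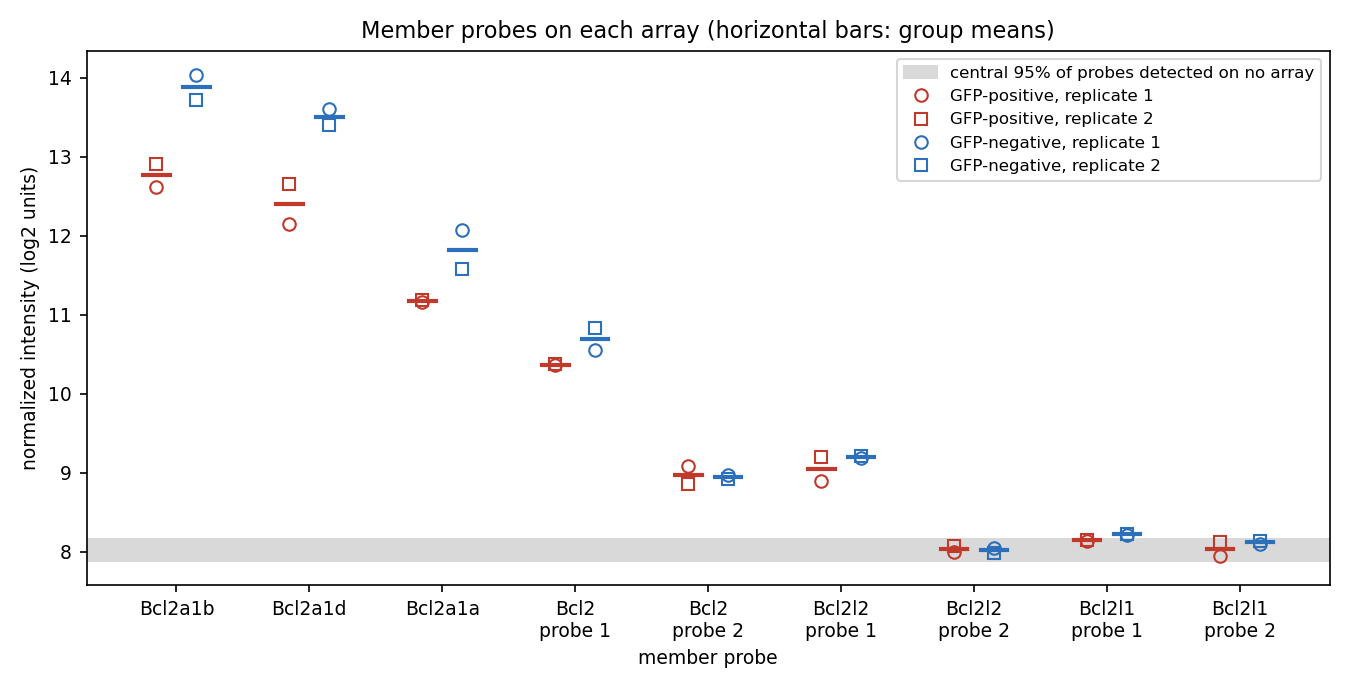
Normalized intensity in log2 units of the 9 member probes on each of the 4 arrays, with GFP-positive arrays left of GFP-negative arrays and a horizontal bar at each group mean (n = 2 each). The grey band spans 7.88 to 8.16, the central 95% of probes detected on no array. The GFP-positive arrays lie below the GFP-negative arrays for 5 of the 7 tested probes, the 3 A1 probes and the brighter probes of Bcl2 and Bcl2l1. The second probes of Bcl2 and Bcl2l1 and both Bcl2l2 probes overlap. The share of all tested probes with groups apart was not counted, so this separation is a description. Heights are not comparable between probes.

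Whether the A1 probes changed by different amounts was read from the difference of 2 probes within each array. The change of Bcl2a1b differed from that of Bcl2a1a by -0.46 log2 units, and that of Bcl2a1d from that of Bcl2a1a by -0.44. In both pairs the within-array difference was lower on each GFP-positive array than on each GFP-negative array. The exact two-sided permutation test gave p = 0.333 for each, and 0.500 adjusted over the 3 pairs. With 2 against 2 arrays this test cannot give a p under 0.333, so it could not have passed the threshold and decides nothing about these differences, which are given as values. The changes of Bcl2a1b and Bcl2a1d differed by -0.02 (exact permutation p = 1, also after adjustment). Bcl2a1c, a further A1 copy that is not among the 6 genes, was detected on 0 of the 4 arrays and was not tested.

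Bcl2 had 2 tested probes with unlike patterns. The brighter one (scl0012043.1_191-S) had 10.36 and 10.37 log2 units in GFP-positive cells, against 10.55 and 10.84 in GFP-negative cells. These groups did not overlap, but the gap of 0.18 was smaller than the 0.29 between the GFP-negative arrays. The change was -0.33 (SE 0.12, 95% interval -0.62 to -0.04, limma adjusted p = 0.150). Its size rested on the GFP-negative arrays, with -0.47 (limma adjusted p = 0.0761) without GFP-negative replicate 1 and -0.18 (limma adjusted p = 0.517) without GFP-negative replicate 2. The dimmer one (scl012043.1_20-S) had 9.09 and 8.85 in GFP-positive cells, against 8.97 and 8.91 in GFP-negative cells, and here the groups overlapped. Its change was +0.03 (SE 0.10, 95% interval -0.24 to 0.29, limma adjusted p = 0.911). Neither probe was called, in this fit or on leaving out any 1 array.

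Bcl2l2, which encodes BCL-W, had 8.89 and 9.19 log2 units in GFP-positive cells, against 9.18 and 9.20 in GFP-negative cells at its detected probe (scl0012050.1_82-S). GFP-positive replicate 1 was the low array, and the groups overlapped. The change was -0.15 (SE 0.12, 95% interval -0.45 to 0.15, limma adjusted p = 0.503), and without GFP-positive replicate 1 it was +0.0017 (limma adjusted p = 0.995). The second Bcl2l2 probe (scl012050.4_30-S) was detected on 0 arrays and lay between 7.99 and 8.07 on all of them.

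Bcl2l1, which encodes BCL-XL, was at the dim end. Its brighter probe (scl0012048.1_98-S), detected on 2 of the 4 arrays, had 8.14 and 8.15 log2 units in GFP-positive cells, against 8.21 and 8.22 in GFP-negative cells. Judged by these values, it passed the filter through GFP-negative cells, where it is higher, so the filter favoured a difference. That the groups did not overlap is therefore given as a value only. The change was -0.08 (SE 0.08, 95% interval -0.27 to 0.11, limma adjusted p = 0.596). The central 95% of probes detected on no array spanned 7.88 to 8.16 on this scale. A change of a transcript this dim may be compressed, which was not tested, so the interval is not read as a bound on the change in RNA. The second Bcl2l1 probe (scl012048.3_57-S) was detected on 0 arrays and lay between 7.94 and 8.14. A difference in BCL-XL transcripts was therefore not measurable at these signals.

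**Figure D2:**
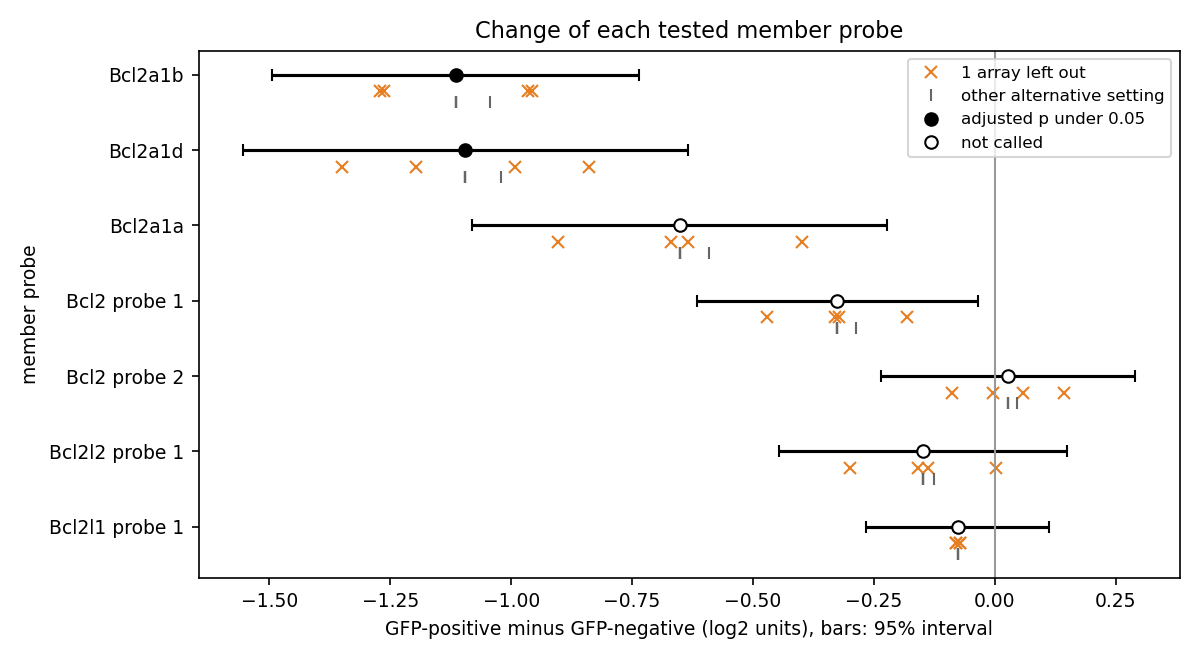
Change of the 7 tested member probes, GFP-positive minus GFP-negative, in log2 units, with the 95% interval of the limma fit (circles, filled where called). Crosses give the change with 1 array left out and ticks the other alternative settings. Bcl2a1b and Bcl2a1d stay between -0.84 and -1.35 in all of them, while Bcl2a1a spans -0.40 to -0.90.

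Taken by probe, 2 of 7 tested members were called lower and 0 higher, where 5.20% of all tested probes were called lower and 5.81% higher. Both calls were A1 probes that may share transcripts, so they do not count as separate genes. The count was 1 without GFP-negative replicate 1 and 3 without GFP-negative replicate 2. The median change was -0.33 over the 7 probes and -0.02 over all tested probes. The 7 include the dim Bcl2l1 probe, detected on 2 arrays alone. The other 2 of the 9 member probes failed the detection filter and have no test.

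**Figure D3:**
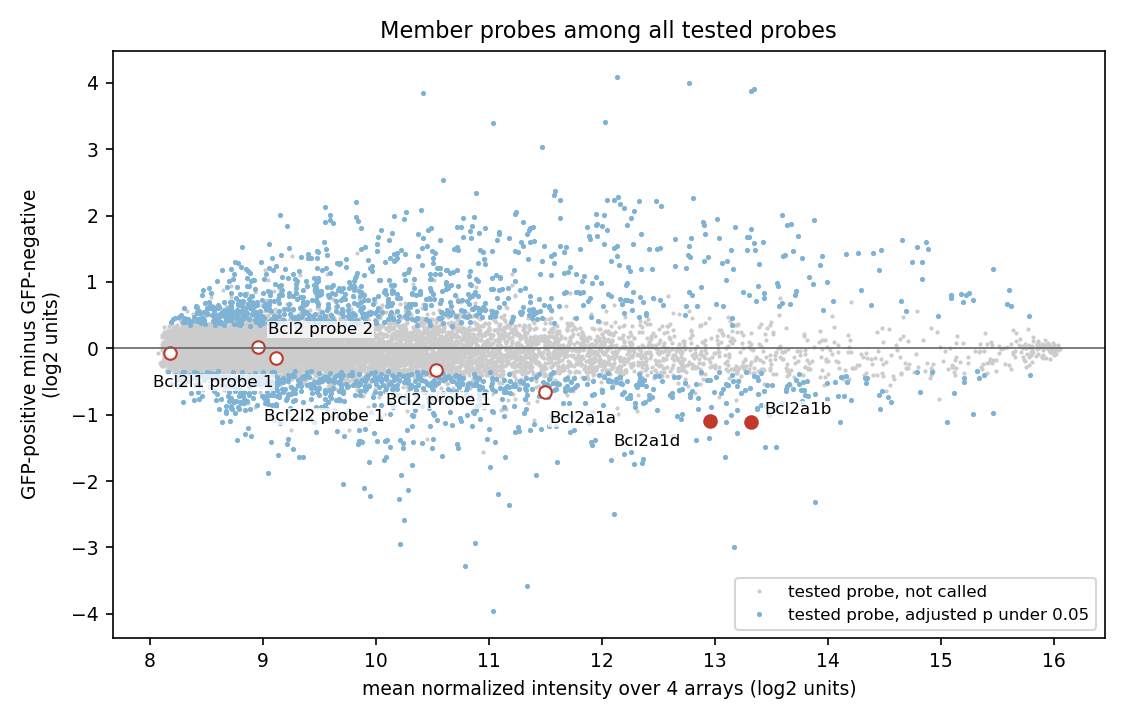
Change in log2 units (GFP-positive minus GFP-negative) against the mean normalized intensity over 4 arrays for all 15787 tested probes, with the 7 tested member probes circled in red and filled where called. Bcl2a1b and Bcl2a1d sit among bright probes at about -1.1, and the Bcl2l1 probe sits at the dim left edge, where all changes are small.

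The other side of the balance was thinly covered by probes whose name gave a gene symbol, 9807 of the 45992 on the array. The remaining probes were not searched for these genes. Of 8 BH3-only genes, the pro-apoptotic sensors that the pro-survival proteins bind, 2 had such a probe and 1 was tested. Pmaip1 (NOXA) had 8.92 and 8.61 log2 units in GFP-positive cells, against 8.78 and 8.49 in GFP-negative cells. The groups overlapped, and the change was +0.13 (SE 0.15, 95% interval -0.25 to 0.50, limma adjusted p = 0.672). A second Pmaip1 probe and the probe of Bmf were detected on 0 arrays. Of 3 effector genes, Bok alone had such a probe, which was detected on 2 arrays. Bok had 8.15 and 8.24 in GFP-positive cells, against 8.22 and 8.15 in GFP-negative cells (change +0.01, limma adjusted p = 0.960). Bax, Bak1, Bcl2l11 and Mcl1 were not analysed here, so the data give no ratio of pro-survival to pro-apoptotic transcripts. Of 3 tested genes in a list of other BCL-2 related proteins, 0 were called. Hax1, a mitochondrial protein with a protective role, had the smallest p (change -0.72, SE 0.21, limma adjusted p = 0.0980), and it was called without GFP-negative replicate 1 (limma adjusted p = 0.0450).

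Downstream of mitochondria, 1 of 9 reported genes of the apoptosome, caspases and their inhibitors rose and 0 fell, where by the brightest probe of each gene 5.30% of 3983 genes with a symbol rose and 5.80% fell. Birc5 (survivin), an inhibitor-of-apoptosis family member that acts in mitosis, rose at all 3 of its tested probes, by 0.82 to 0.89 (limma adjusted p from 0.00418 to 0.00794). Apaf1, the scaffold of the apoptosome, had a change of +0.02 (limma adjusted p = 0.953), and Xiap, an inhibitor of caspases, of +0.17 (limma adjusted p = 0.291). Xiap, detected on 3 arrays, was near the band of undetected probes, with 8.27 and 8.39 log2 units in GFP-positive cells, against 8.12 and 8.20 in GFP-negative cells. The median change of the 9 genes was +0.02. Of 6 tested genes of death receptors and their adaptors 0 were called, and Tnfrsf1a, the receptor TNFR1, had the smallest p (change +0.17, limma adjusted p = 0.279). Tnfrsf1a was detected on 2 arrays alone, with 8.29 and 8.40 log2 units in GFP-positive cells, against 8.19 and 8.16 in GFP-negative cells. These values are near the band of undetected probes, and by them it passed the filter through the group where it is higher.

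Because A1 is a target of NF-kB downstream of CD40, genes of that route were read beside it. Of 8 tested NF-kB factors, kinases and inhibitors, 1 fell and 0 rose, 7 had a negative sign, and the median change was -0.30. Over all 3983 genes with a symbol 5.80% fell, 2068 had a negative sign and the median was -0.01, so 1 call among 8 genes is close to that background. Map3k14 (NIK), the kinase that starts the non-canonical NF-kB pathway below CD40, had 9.47 and 9.65 log2 units in GFP-positive cells, against 10.38 and 10.45 in GFP-negative cells. Its groups were 0.72 apart, and it fell by 0.85 (SE 0.10, limma adjusted p = 0.00692), a call kept in every alternative run. Ikbkb, the kinase of the canonical pathway, was just outside the threshold (change -0.50, SE 0.12, limma adjusted p = 0.0541) and was called without GFP-negative replicate 1 (limma adjusted p = 0.0427). The subunit Rel had a change of -0.24 (limma adjusted p = 0.288), which was -0.10 without GFP-negative replicate 1 and -0.39 without GFP-negative replicate 2. Of 24 genes listed as induced by NF-kB or CD40, only 5 had a probe with a symbol, and 4 were tested. Cd40 fell, where 5.80% of all genes with a symbol did, and 3 were not called. All 4 had a negative sign (median -0.32), as had 2068 of the 3983 genes with a symbol. Cd40, the receptor of the ligand in the culture, had 9.21 and 9.34 in GFP-positive cells, against 10.37 and 10.30 in GFP-negative cells, a change of -1.06 (SE 0.09, limma adjusted p = 0.00295). The list of receptors for BAFF, APRIL and CD40 had 2 tested genes. Its only call is the same Cd40 probe, and Tnfrsf13b (TACI) was not called. Whether these genes and A1 are linked was not tested.

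Of 13 tested survival kinases and genes of cytokine signalling, 2 rose and 2 fell, with a median change of -0.04, where 5.30% of all genes with a symbol rose and 5.80% fell. Pim2, a serine/threonine kinase that promotes survival, rose at all 3 of its tested probes, and its brightest probe had 11.45 and 11.51 log2 units in GFP-positive cells, against 9.93 and 9.97 in GFP-negative cells (change +1.52, SE 0.08, limma adjusted p = 0.00112). Socs2, an inhibitor of cytokine signalling, rose by 1.07 (SE 0.19, limma adjusted p = 0.0262), a call lost without either GFP-negative array (limma adjusted p = 0.0692 and 0.0657). Jak3, the kinase of the common gamma chain receptors, fell by 0.81 (SE 0.14, limma adjusted p = 0.0252), but its dimmer probe was not called (change -0.39), and the call was lost on leaving out any array except GFP-positive replicate 1 (limma adjusted p from 0.0531 to 0.0740). Foxo1, a transcription factor that AKT restrains, fell by 0.54 (SE 0.09, limma adjusted p = 0.0203), and its call was lost on leaving out any array except GFP-negative replicate 1 (limma adjusted p from 0.0791 to 0.0974). Of 4 tested p53 target genes 3 rose and 0 fell, with the cell cycle inhibitor Cdkn1a at +1.94, Ccng1 at +1.27 and Zmat3 at +0.95, and the fourth was Pmaip1. Of all genes with a symbol 5.30% rose. Zmat3 lost its call without GFP-negative replicate 1 (limma adjusted p = 0.0557).

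**Figure D4:**
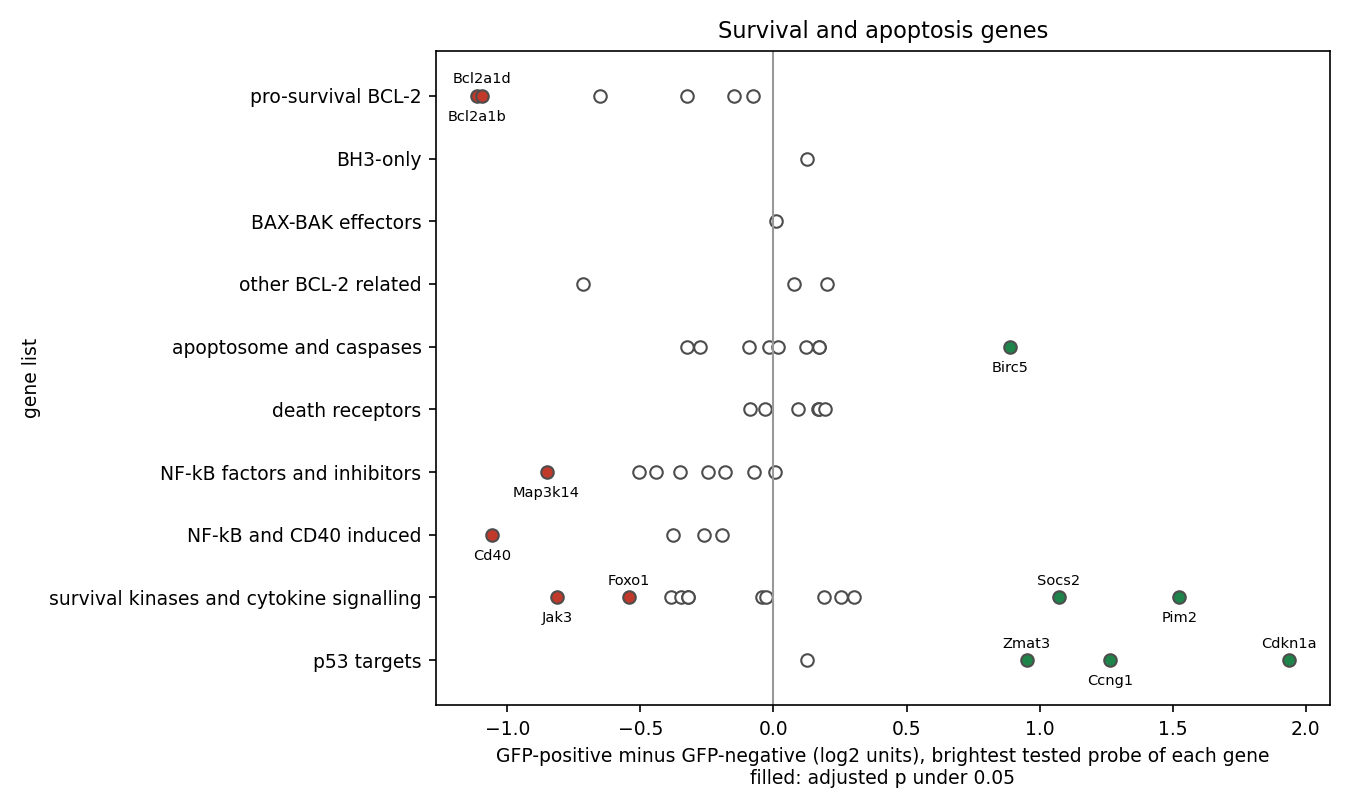
Change in log2 units (GFP-positive minus GFP-negative) of the brightest tested probe of each gene in 10 lists, filled where called and named there (red lower, green higher). The A1 genes, Map3k14, Cd40, Jak3 and Foxo1 are the named genes left of 0, and Birc5, Socs2, Pim2 and the p53 targets are those right of 0.

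The 4-array pattern of the A1 probes was set against every tested probe of a named gene outside the 6, using the root mean square difference of values centred on each probe's own mean. The pattern of Bcl2a1b lay 0.09 from that of Bcl2a1d and 0.26 from that of Bcl2a1a. The 5 nearest other genes were Pold4, a subunit of DNA polymerase delta (0.06), H2-Ab1, a class II MHC chain (0.11), Havcr1, the surface protein TIM-1 (0.11), Cd40 (0.11) and Dennd3 (0.11). For Bcl2a1d they were H2-Ab1 (0.04), H2-DMa of class II peptide loading (0.09), Pold4 (0.09), Ifngr2 of the interferon-gamma receptor (0.12) and the adaptor gene Samsn1 (0.13). By the way they were chosen these genes have changes near those of A1, from -0.94 to -1.35. With 4 arrays from 2 groups this likeness is a description of the arrays.

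**Figure D5:**
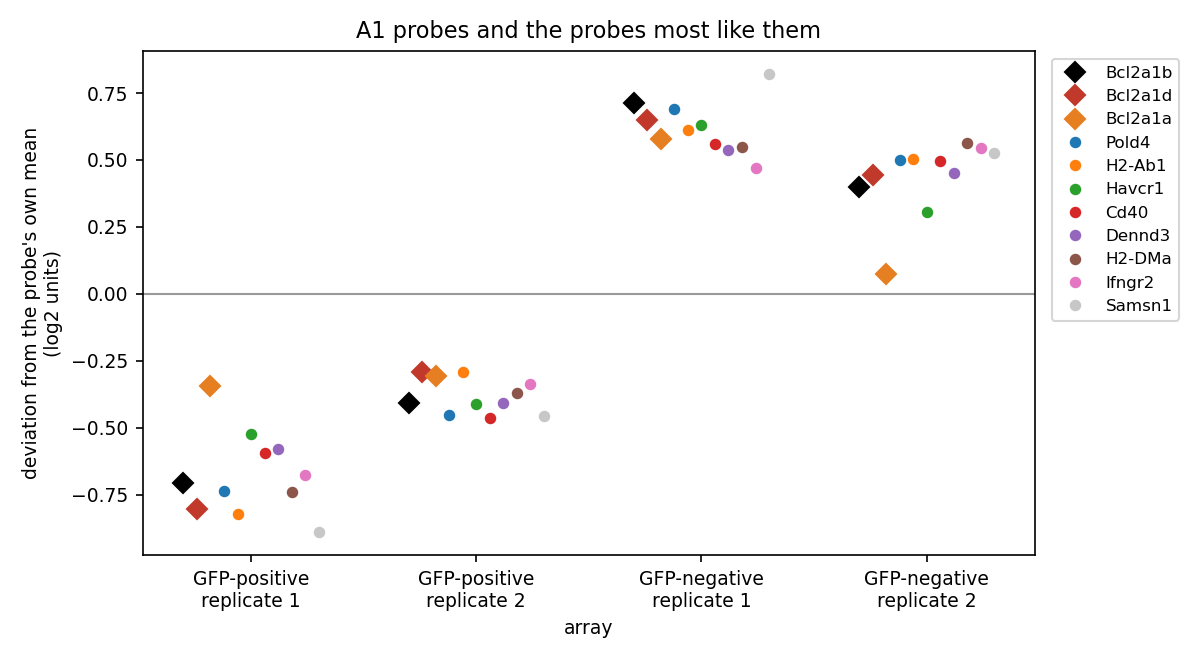
Deviation of each probe from its own mean in log2 units on the 4 arrays, for the 3 A1 probes (diamonds) and the 8 genes whose pattern was nearest to Bcl2a1b or Bcl2a1d (circles). All lie below 0 on the GFP-positive arrays and above 0 on the GFP-negative arrays; Bcl2a1a is the one nearest 0 on GFP-negative replicate 2.

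At the reporter the arrays followed the sort label, since the eGFP probe had 12.75 and 12.72 log2 units in GFP-positive cells, against 9.28 and 9.39 in GFP-negative cells. A second reporter probe, GFP-S, was detected on 0 arrays and lay between 7.98 and 8.04 on all of them, with both GFP-positive arrays below both GFP-negative arrays. Of 19 B-cell marker genes 4 had a probe with a symbol (Cd72, Fcer2a, Spib and Ebf1). All 4 were detected on all 4 arrays and fell, where 5.80% of all genes with a symbol fell and 5.30% rose. The mean level of these 4 was 10.58 to 10.62 in GFP-positive cells, against 12.51 to 12.67 in GFP-negative cells. Spib lost its call without GFP-positive replicate 1 (limma adjusted p = 0.0670) and without GFP-positive replicate 2 (limma adjusted p = 0.0574). Of 12 markers of antibody-secreting cells 4 had a probe with a symbol, and 3 were tested and called higher. The mean of the 4 was 10.26 to 10.43 in GFP-positive cells, against 9.55 to 9.58 in GFP-negative cells. Jchain passed the filter on 2 arrays alone, with 9.84 and 9.34 in GFP-positive cells, against 8.16 and 7.95 in GFP-negative cells, where it lay in the band of undetected probes. Judged by these values, it passed the filter through the group where it is high. The filter thus favoured a difference, and the Jchain call is given as a value only. Xbp1 rose by 0.88 (limma adjusted p = 0.0159) but missed the threshold when GFP-positive replicate 2 was left out (limma adjusted p = 0.0600). Ell2 rose by 0.70 (limma adjusted p = 0.0439), a call lost with no detection filter (limma adjusted p = 0.0732) and on leaving out any array except GFP-positive replicate 2 (limma adjusted p from 0.0816 to 0.145). The B-cell markers thus fell, as the A1 probes did, while the tested markers of antibody-secreting cells rose. The part of either list in the A1 result was not tested. A1 genes are also expressed by granulocytes, mast cells and T cells. Of 7 neutrophil markers with a probe 0 were detected on at least 2 arrays, of 3 mast cell markers 0, of 2 NK cell markers 0, of 4 T-cell markers 1 (Cd247, not called) and of 8 macrophage markers 2 (Itgam and Cd68, neither called). Itgam had 8.30 and 8.28 in GFP-positive cells, against 7.96 and 7.98 in GFP-negative cells (change +0.32, limma adjusted p = 0.0565). It was called with no detection filter (limma adjusted p = 0.0295) and with the variance trend (limma adjusted p = 0.00468). Like Jchain, Itgam was detected on 2 arrays alone and lay in the band of undetected probes in GFP-negative cells. Cd68 had a change of +0.33 (limma adjusted p = 0.128). The neutrophil list averaged 8.07 to 8.09 in GFP-positive cells, against 8.07 to 8.08 in GFP-negative cells, and the macrophage list 8.19 to 8.21 in GFP-positive cells, against 8.08 on both arrays of GFP-negative cells. Both lie at or near the band of undetected probes, and the part of such cells in the A1 result was not tested. Of the dendritic cell markers Batf3, which B cells can also express, rose, and of the red cell markers 0 of 2 tested were called.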

How the data were processed

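RNA of sorted cells was measured on 4 single-colour Illumina bead arrays, 2 per group. The log2 values used are the authors' deposited normalized intensities, made with lumi per the submitters' processing notes. The sources used here give neither lumi's version nor its background step or transformation. Ranked from low to high, the arrays differed by at most 0.00267, and values ran from 7.71 to 16.07. How a value near 8 maps to linear intensity is unknown, and differences are therefore kept in log2 units. The design had allowed for neqc of unnormalized signals, but those 4 columns match no sample label and were not used. Their deposited detection p-values gave only the number of arrays with p under 0.05 for each probe. Probe names with a Gene ID were matched to RefSeq, giving 9807 probes a symbol. Both groups came from the sample labels. The 15787 probes detected on at least 2 arrays were fitted in limma 3.58.1 under R 4.3.3 (lmFit, eBayes), without trend or block, with Benjamini-Hochberg adjustment over all of them, two-sided. The fit was also run on simulated data with independent noise on each array. That setting lacks the shared deviation of same-numbered arrays, so it does not test the fit under such deviation. Lists use each gene's brightest tested probe, and 1 gene of the caspase list is not reported here. Promoter stretches were aligned with Biopython 1.88, and permutation tests used SciPy 1.17.1. Named genes were the members, every measured BH3-only, effector or other pro-survival gene, up to 4 called genes of each other list (or the smallest p), and the 5 probes nearest in pattern to each called member. Alternatives were no filter, detection on all 4 arrays, 1 probe per gene, cyclic loess, a variance trend, robust eBayes, a replicate block and leaving out each array. Members and lists were chosen with earlier results of these data known. The number of arrays limits the precision.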

Additional observations from a re-analysis of the deposited data

How the results depend on the processing

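Of 75 values of the 7 tested member probes under the alternatives, 70 kept their side of the threshold, 1 lost its call and 4 gained one, and no called value changed sign. Cyclic loess, the detection filters, 1 probe per gene, the variance trend and robust eBayes left 2 member probes called lower and 0 higher, except that the variance trend added Bcl2a1a (limma adjusted p = 0.04996). Leaving out 1 array at a time gave 1 to 3 member probes called lower, and over all tested probes 484 to 605 called higher and 329 to 593 called lower, against 918 and 821 with 4 arrays. With the replicate number as a block, 1907 probes were higher and 2144 lower, and 4 member probes were lower, Bcl2a1a (limma adjusted p = 3.31e-04) and the brighter Bcl2 probe (limma adjusted p = 0.0223) joining Bcl2a1b and Bcl2a1d. The block also called Hax1 (limma adjusted p = 1.55e-05) and Ikbkb (limma adjusted p = 0.00154) lower, and the macrophage markers Itgam (limma adjusted p = 0.0165) and Cd68 (limma adjusted p = 0.0150) higher. Same-numbered arrays deviated from their group means together (r = 0.43 over 15787 probes), but the labels state no pairing beyond the number and 2 pairs do not establish one. The differences between the changes of A1 paralogs kept their sign after cyclic loess. Dim signal limits Bcl2l1, and 2 arrays per group limit all tests.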
